A study of Homo sapiens with 12 samples.

Results

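The genes described here are 42 human heat shock proteins, their co-chaperones and the subunits of the cytosolic chaperonin, taken from a list of symbols. A gene was represented by the probe set (a group of short oligonucleotides that read the same transcript) that the platform annotation gives to that gene alone and that had the highest mean log2 signal over all 12 arrays. By this rule 36 of the 42 genes had a representative, among 19775 genes on the array, and 35 of them passed the filter on dim signals (a highest group mean over 6.387 on the log2 scale), among 13067 genes tested. The gene left out by the filter was HSPA1L, an HSP70 known for its expression in testis, whose mean log2 signal was 4.78 in WT cells with tetracycline, 4.50 in untreated WT cells, 5.92 in mutant cells with tetracycline and 5.89 in untreated mutant cells. HSPA1A, HSPA1B, HSPA8 and TCP1 were read only by probe sets annotated to several genes, which were kept out of the counts and are described by their probe sets. HSPB11 and HSF2 had no probe set named for them and were not analysed here. The list is called cytosolic, but it holds HSPD1 and HSPE1, which work in mitochondria, and HSPA13, which is known from microsomes.

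Total RNA of stable lines of HEK, a cell line of human embryonic kidney origin, was hybridised to 12 Affymetrix arrays, in 4 groups of 3 arrays. WT cells with tetracycline carried an inducible wild-type TRPM7, a membrane protein that joins a cation channel to a kinase, and were given 1 ug of tetracycline for 72 hours; the labels give no volume. Untreated WT cells were the same line without the inducer. Mutant cells with tetracycline carried TRPM7 from which the whole kinase domain at the C-terminus had been removed, which the submitters used as the inactive control for effects of the inducer, and untreated mutant cells were that line without it. All groups grew in medium with 10% fetal bovine serum and 5 ug/mL blasticidin. Each genotype is 1 cell line, so genotype and line cannot be told apart, and no label tells if arrays of 1 group had cultures of their own. The p-values thus cover the spread between these arrays, which may be technical.

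Molecular chaperones keep other proteins from aggregating and help them fold. HSP70 proteins bind unfolded stretches in a cycle of ATP use: J proteins (the DNAJ genes) deliver substrates and start ATP hydrolysis, while nucleotide exchange factors (the BAG and HSP110 genes) release them. Substrates such as kinases and receptors pass to HSP90 through the adaptor STIP1, small heat shock proteins hold unfolded proteins without using ATP, and the ring-shaped chaperonin of TCP1 and the CCT subunits folds actin and tubulin. Many of these genes are switched on by the heat shock factor HSF1, which binds repeats of the 5-base unit nGAAn in alternating orientation, the heat shock element.

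The sequences before 4 genes are printed because HSPB8 had the largest rise and DNAJB1 the largest fall among members in WT cells with tetracycline, probe sets annotated to HSPA8 fell there, and HSPD1 shows a longer run of the heat shock element for comparison. They are the 250 bases before the start site from RefSeq, assembly GRCh38.p14, 5′ to 3′ on the strand of the gene, and capitals mark each match to GAANNTTC or TTCNNGAA, which are 2 units of the heat shock element facing in opposite directions. Where a gene had several windows, the one with the most matches is shown.
HSPB8, chr12:119178681-119178930, plus strand: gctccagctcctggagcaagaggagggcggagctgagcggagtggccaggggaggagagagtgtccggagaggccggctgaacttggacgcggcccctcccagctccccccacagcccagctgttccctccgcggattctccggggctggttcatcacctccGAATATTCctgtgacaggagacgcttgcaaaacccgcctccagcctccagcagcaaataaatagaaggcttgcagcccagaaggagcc
DNAJB1, chr19:14518398-14518647, minus strand: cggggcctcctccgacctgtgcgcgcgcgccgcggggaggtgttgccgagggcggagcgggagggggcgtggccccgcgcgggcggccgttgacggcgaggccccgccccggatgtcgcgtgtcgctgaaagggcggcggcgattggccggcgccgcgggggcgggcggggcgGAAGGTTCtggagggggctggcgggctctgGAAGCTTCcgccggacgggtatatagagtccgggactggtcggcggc
HSPA8, chr11:123062137-123062386, minus strand: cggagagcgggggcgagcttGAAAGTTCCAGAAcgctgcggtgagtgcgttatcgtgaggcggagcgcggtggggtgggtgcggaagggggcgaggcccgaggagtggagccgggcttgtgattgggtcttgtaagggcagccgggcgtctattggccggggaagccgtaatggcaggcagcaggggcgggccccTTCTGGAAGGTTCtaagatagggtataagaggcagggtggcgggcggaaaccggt
HSPD1, chr2:197499841-197500090, minus strand: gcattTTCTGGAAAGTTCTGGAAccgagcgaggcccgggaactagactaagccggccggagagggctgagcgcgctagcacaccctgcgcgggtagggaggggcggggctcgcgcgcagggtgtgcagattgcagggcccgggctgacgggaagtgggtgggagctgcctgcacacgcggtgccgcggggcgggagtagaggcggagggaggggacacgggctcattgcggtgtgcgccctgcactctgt

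HSPB8 had 1 match, which began 88 bases before the start, and another began 4 bases after the start, outside the printed stretch. DNAJB1 had matches 77 and 47 bases before the start. In HSPA8 and HSPD1 a match to GAANNTTC and a match to TTCNNGAA overlapped by a shared unit, which makes 3 alternating units in a row, the minimal heat shock element. HSPA8 had them from 230 and from 55 bases before the start, and HSPD1 had a longer run from 245 bases before the start.

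Windows of 300 bases, with 250 before and 50 after the start, were given for 37 of the 42 genes. A match to GAANNTTC stood in 17 of them (45.9%), against 8.21% of all 27305 genes with a window, and a match to TTCNNGAA in 11 (29.7%), against 9.46%. Both motifs are their own reverse complement, so a match on 1 strand is a match on the other. The 3 alternating units stood in 7 (18.9%), namely HSPA6, HSPA8, HSP90AA1, HSP90AB1, HSPD1, DNAJA1 and DNAJB6, against 0.608% of all genes. A gene counted if any of its windows had a match. Either 2-unit motif stood in 2 of the 4 genes that rose in WT cells with tetracycline, in 2 of the 4 that fell, and in 12 of the 23 with a window that were tested and not called. The 3-unit form stood in 0 of the 4 that rose, 0 of the 4 that fell and 6 of the 23 not called. These matches describe the letters of the window only.

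Signals are on the log2 scale, and a change is a difference of 2 group means on that scale given ± its standard error (SE) from limma over all 12 arrays, n = 3 arrays per group. Calls were made where the p adjusted by Benjamini-Hochberg over all tested probe sets was under 0.05. No TRPM7 probe set was called higher with tetracycline in either line. Its brightest probe set read 8.19, 7.79 and 6.88 in WT cells with tetracycline against 8.68, 8.12 and 8.60 in untreated WT cells, a change of -0.85 that was not called (adjusted p = 0.0644, limma), and 8.53, 8.04 and 7.99 in mutant cells with tetracycline against 8.45, 8.47 and 8.25 in untreated mutant cells. Of the other 2 tested probe sets of TRPM7, the dimmer was called lower in WT cells (adjusted p = 0.0411, limma). The sources used here do not say whether these probes match the transgene, so the labels could not be checked by it and groups are named as labelled. All 7 HEK cell markers were tested, with summed linear signals of 63660 to 71570 in WT cells with tetracycline, 67600 to 71700 in untreated WT cells, 69880 to 81370 in mutant cells with tetracycline and 66910 to 74430 in untreated mutant cells. Of the other markers 1 of 3 for blood, 1 of 4 for fibroblasts, 1 of 3 for endothelium and 0 of 2 for hepatocytes passed the filter. Of the HEK cell markers, VIM rose to 15.50 in WT cells with tetracycline, against 14.85 in untreated WT cells, INA rose to 10.95, against 10.09, and IRS4 fell to 13.37, against 14.93. IRS4 was also called in the change in WT cells minus that in mutant cells, at -1.42 (adjusted p = 0.0405, limma). The part of these markers in the results was not tested. The fibroblast marker COL1A1 rose by 0.88 in WT cells with tetracycline, and its part in the results was not tested. In these bulk samples fewer cells of a type and less RNA per cell cannot be told apart.

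In WT cells with tetracycline against untreated WT cells, the small heat shock protein HSPB8 rose most, by 2.42 ± 0.303 on the log2 scale, and the J protein DNAJB1 fell most, by 0.91. HSPB8, HSPB1, BAG1 and HSPA13 rose, and DNAJB1, HSPH1, HSPE1 and STIP1 fell. The rises were 4 of 35 tested members (11.4%), against 9.41% of all tested genes, and the falls were 4 of 35 (11.4%), against 8.57%, so neither share was far from that of the array as a whole. The median change of the members was 0.03, and that of all genes was also 0.03. At an unadjusted p under 0.05 there were 13 of 35, where 32.9% of all genes had such a p. Groups did not overlap in 7 higher members, where 15.3% of all genes did so, and in 5 lower members, where 12.3% did. The count depended on the arrays used: 2 members, HSPB8 and DNAJB1, were called from the 6 WT arrays alone, and 1, HSPB8, without the replicate 3 arrays of all groups. It was 5 without WT tetracycline replicate 2 or 3, mutant tetracycline replicate 2 or mutant untreated replicate 2 or 3, and 6 to 11 without any other single array.

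**Figure D1:**
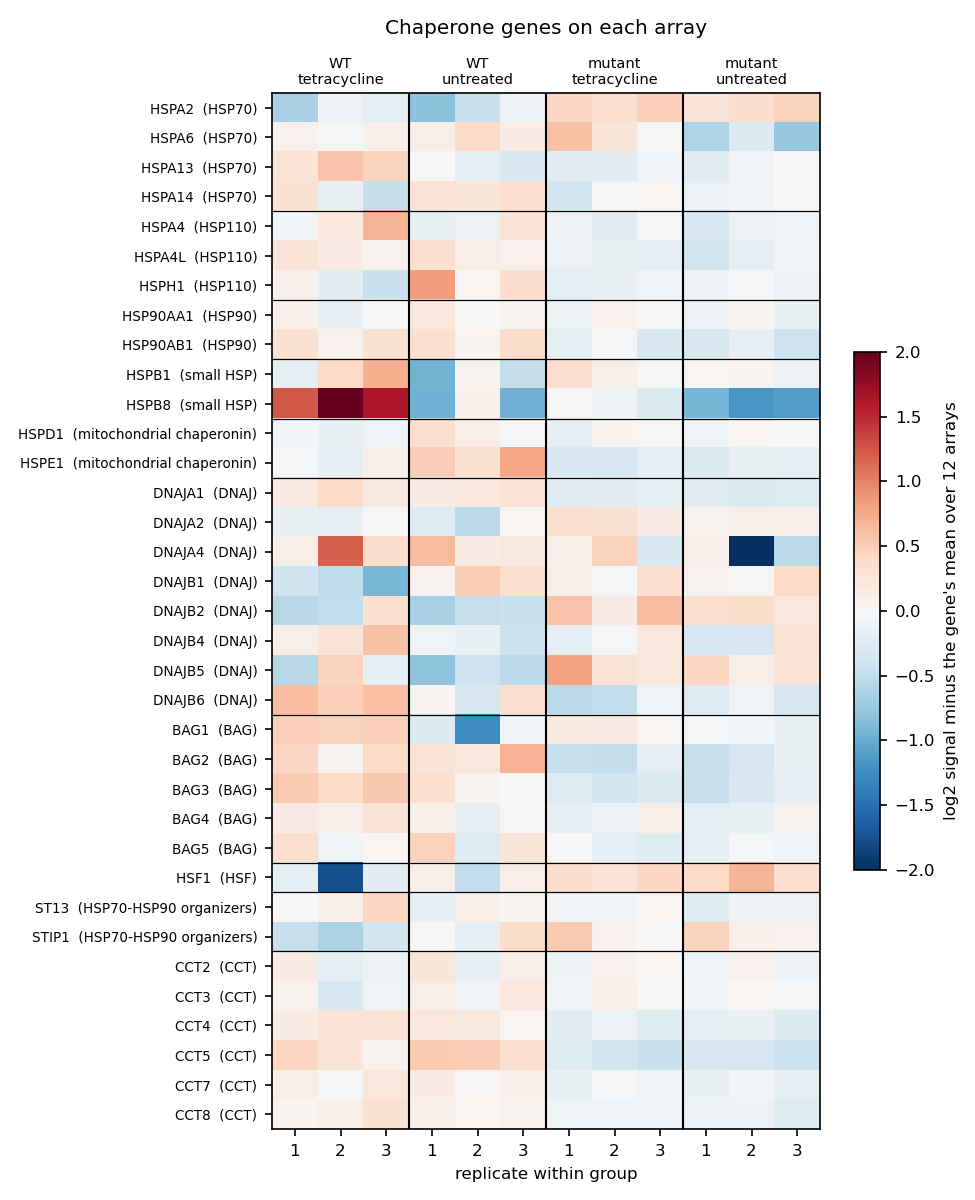
Each row is 1 of the 35 tested genes and each column 1 array, and the colour is the log2 signal minus the mean of the gene over 12 arrays (red above, blue below, limited at 2). HSPB8 stands out in red in the 3 arrays of WT cells with tetracycline, and the CCT rows stay pale.

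Both tested small heat shock proteins rose. HSPB8, which works with BAG3 to send misfolded proteins to autophagy, read 11.42, 12.71 and 11.81 in WT cells with tetracycline, against 9.21, 10.27 and 9.21 in untreated WT cells. The lowest array with the inducer was above the highest array without it. This is a 5.34-fold rise, with a 95% interval of 1.77 to 3.06 on the log2 scale and an adjusted p of 0.00028 (limma). It was called in 12 of 12 fits that each left out 1 array, with values of 2.05 to 2.77. A dimmer HSPB8 probe set passed the filter only through WT cells with tetracycline, at 6.68 against 4.81 in untreated WT cells, and was not called (adjusted p = 0.141, limma).

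HSPB1, also called HSP27, which binds unfolded proteins and actin filaments, read 12.09, 12.67 and 12.99 in WT cells with tetracycline, against 11.34, 12.35 and 11.81 in untreated WT cells. The groups overlapped, since the lowest treated array lay under the highest untreated one. The change was 0.75 ± 0.234 (adjusted p = 0.0404, limma), and it was called in 2 of the 12 fits that left out 1 array, with adjusted p from 0.00346 to 0.174, namely without WT tetracycline replicate 1 and without WT untreated replicate 2. The median of both small heat shock proteins was 1.58.

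Among the BAG genes, BAG1, which links HSP70 to the proteasome, was the 1 of 5 that was called. It read 11.66, 11.64 and 11.65 in WT cells with tetracycline, against 10.90, 9.94 and 11.11 in untreated WT cells. The treated arrays lay close together, and the untreated ones were spread over more than a log2 unit with replicate 2 lowest. The change was 1.00 ± 0.219 (adjusted p = 0.00692, limma), and it was 0.65 without untreated WT replicate 2, where it was still called. A further BAG1 probe set rose by 1.16, a call lost without WT tetracycline replicate 2 or 3, while another dim one was at -0.67 and was not (adjusted p = 0.0523, limma). With the mean of all BAG1 probe sets the change was 0.50 and was not called.

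BAG3, the partner of HSPB8, read 12.30, 12.17 and 12.32 in WT cells with tetracycline, against 12.12, 11.83 and 11.77 in untreated WT cells. The groups did not overlap, but the change of 0.36 ± 0.128 missed the threshold (adjusted p = 0.0695, limma). BAG2, which holds back the ubiquitin ligase STUB1, had a log2 difference of -0.11, BAG4 of 0.20 and BAG5 of -0.05, none of them called, and the median of the 5 BAG genes was 0.20.

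The HSP70 genes with a probe set of their own gave 1 call of 4 tested. HSPA13, an HSP70-like ATPase without the peptide-binding domain, read 12.30, 12.60 and 12.47 in WT cells with tetracycline, against 12.03, 11.83 and 11.72 in untreated WT cells. All treated arrays were above all untreated ones. The change was 0.60 ± 0.125 (adjusted p = 0.00555, limma), it was called in 12 of 12 fits that left out 1 array, and a further HSPA13 probe set rose by 0.92. HSPA2, known from sperm development, had a log2 difference of 0.14, HSPA6, a strictly stress-inducible HSP70, of -0.17, and HSPA14, which sits on the ribosome, of -0.40, and none of these 3 was called. Further HSPA14 probe sets went the other way, at 0.33 (adjusted p = 0.0748, limma) and 0.41 (adjusted p = 0.183, limma), and neither was called.

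The HSP110 genes, nucleotide exchange factors of HSP70, gave 1 call of 3. HSPH1 read 11.65, 11.32 and 11.10 in WT cells with tetracycline, against 12.39, 11.58 and 11.90 in untreated WT cells. The groups overlapped, and the change was -0.60 ± 0.181 (adjusted p = 0.0354, limma). It was called in 3 of the 12 fits that left out 1 array, with adjusted p from 0.00702 to 0.141, namely without WT tetracycline replicate 1, WT untreated replicate 2 or mutant tetracycline replicate 3. A dimmer HSPH1 probe set was also called lower, at 6.16 in WT cells with tetracycline, under the filter, and 8.14 in untreated WT cells. A brighter further HSPH1 probe set was at -0.51, where the groups overlapped, and was not called (adjusted p = 0.159, limma). HSPA4 was at 0.28 and HSPA4L at -0.01, and neither was called.

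A dimmer HSPA4 probe set was called lower where its representative was not called. Its mean was 3.98 in WT cells with tetracycline and 8.04 in untreated WT cells (adjusted p = 0.00171, limma). The treated mean lies under the filter of 6.387, so the size of the fall is not well measured, while the representative probe set was at 12.94 in WT cells with tetracycline and 12.66 in untreated WT cells. The other 2 tested HSPA4 probe sets were at 0.21 and 0.29, and neither was called.

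Neither HSP90 gene was called. HSP90AA1, the stress-inducible form, averaged 15.17 ± 0.135 in WT cells with tetracycline and 15.28 ± 0.112 in untreated WT cells (SD, n = 3 each). HSP90AB1, the constitutive form, averaged 14.46 ± 0.129 in WT cells with tetracycline and 14.48 ± 0.168 in untreated WT cells (SD, n = 3 each). Their log2 differences were -0.11 (adjusted p = 0.479, limma) and -0.02 (adjusted p = 0.939, limma). Of the adaptors between HSP70 and HSP90, STIP1 read 11.28, 11.12 and 11.38 in WT cells with tetracycline, against 11.78, 11.56 and 12.11 in untreated WT cells. The groups did not overlap, and the change was -0.56 ± 0.173 (adjusted p = 0.039, limma). It was called in 5 of the 12 fits that left out 1 array, with adjusted p from 0.0208 to 0.156, namely without replicate 1 of WT tetracycline, mutant tetracycline or mutant untreated, WT untreated replicate 2 or mutant tetracycline replicate 3. A further STIP1 probe set was at -0.36 and was not called (adjusted p = 0.0617, limma). The other adaptor, ST13, was at 0.16 and was not called. Further ST13 probe sets went the other way, at -0.29 (adjusted p = 0.131, limma) and -0.31 (adjusted p = 0.0749, limma). Their groups did not overlap, and neither was called.

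Of the 8 J proteins only DNAJB1, the main stress-inducible partner of HSP70, was called at its representative. It read 10.85, 10.75 and 10.33 in WT cells with tetracycline, against 11.32, 11.76 and 11.58 in untreated WT cells. All treated arrays were below all untreated ones. The change was -0.91 ± 0.172 (adjusted p = 0.00296, limma), it was called in 12 of 12 fits that left out 1 array, and a further DNAJB1 probe set fell by 0.58, a call lost without WT tetracycline replicate 3. DNAJB6, which keeps polyglutamine proteins from aggregating, read 10.41, 10.27 and 10.39 in WT cells with tetracycline, against 9.85, 9.48 and 10.12 in untreated WT cells. Its groups did not overlap, but its change of 0.54 ± 0.185 missed the threshold (adjusted p = 0.0573, limma). DNAJB4 was similar in size, at 0.54 ± 0.209 (adjusted p = 0.0919, limma). The remaining J proteins DNAJA1, DNAJA2, DNAJA4, DNAJB2 and DNAJB5 lay between 0.03 and 0.48, and the median of the 8 was 0.26. A dimmer DNAJA1 probe set fell by 0.62, while the representative was at 0.03; the call was lost without WT tetracycline replicate 2 or 3 or WT untreated replicate 1 or 3.

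In the mitochondrial chaperonin, where HSPD1 forms the barrel and HSPE1 the lid, HSPE1 read 13.26, 13.10 and 13.41 in WT cells with tetracycline, against 13.79, 13.62 and 14.08 in untreated WT cells. All treated arrays were below all untreated ones. The change was -0.57 ± 0.124 (adjusted p = 0.00663, limma), and it was called in 12 of 12 fits that left out 1 array. HSPD1 read 15.16, 15.07 and 15.12 in WT cells with tetracycline, against 15.53, 15.34 and 15.18 in untreated WT cells. Its change of -0.24 ± 0.0991 was not called (adjusted p = 0.116, limma), although 2 dimmer HSPD1 probe sets fell, by 0.42 and 1.41. HSF1 was not called, at -0.63 ± 0.328 (adjusted p = 0.203, limma). Its WT tetracycline replicate 2 was at 7.38, below the other 2 treated arrays at 8.95 and 8.92, against 9.24, 8.65 and 9.26 in untreated WT cells. A dimmer HSF1 probe set went the other way, at 0.44, and was not called (adjusted p = 0.384, limma).

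**Figure D2:**
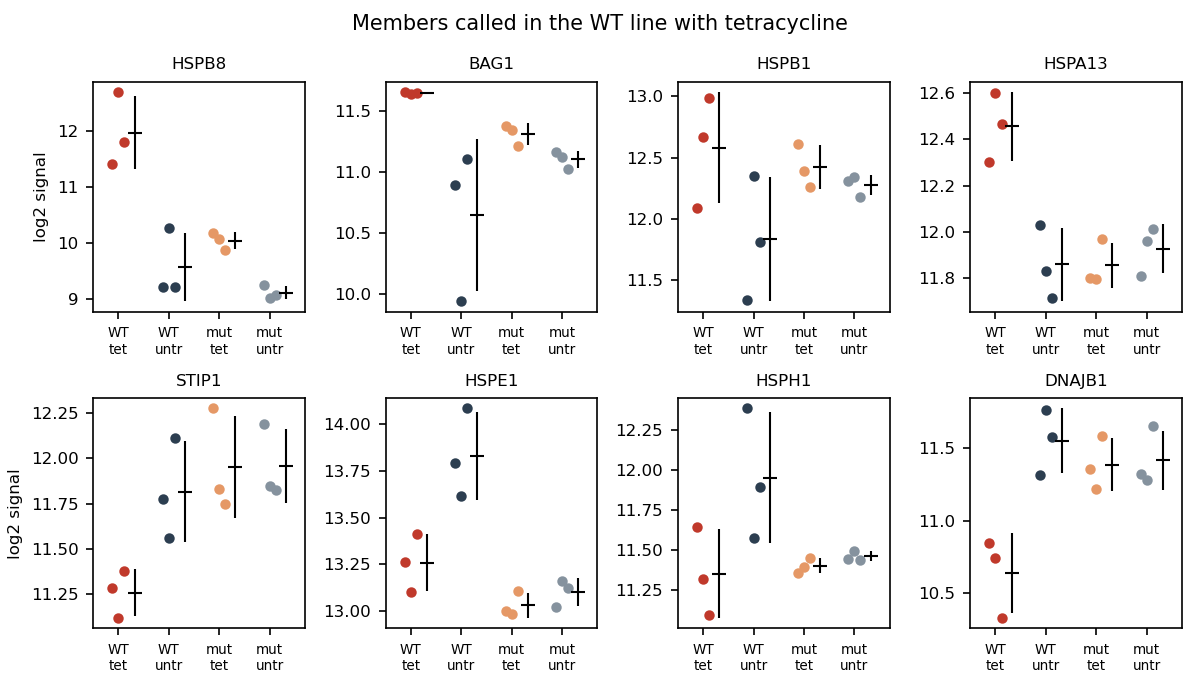
Points are the log2 signals of single arrays for the 8 genes called in WT cells with tetracycline against untreated WT cells, with all 4 groups side by side (tet, tetracycline; untr, untreated; mut, mutant), and crosses and lines give the mean ± SD. HSPB8, BAG1, HSPA13 and HSPB1 were higher and DNAJB1, HSPE1, HSPH1 and STIP1 lower with tetracycline in WT cells, and the groups overlapped for HSPB1 and HSPH1.

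None of the 6 tested subunits of the cytosolic chaperonin was called at its representative probe set. CCT2, CCT3, CCT4, CCT5, CCT7 and CCT8 had log2 differences of -0.20 to 0.10 between WT cells with tetracycline and untreated WT cells, with a median of -0.04 and a median absolute change of 0.097, where the median absolute change of all genes was 0.326. CCT3 was farthest from 0, with 14.04, 13.68 and 13.91 in WT cells with tetracycline, against 14.11, 13.92 and 14.18 in untreated WT cells, and its groups overlapped. All 6 were bright, and the filter on dim signals removed none of them, while the 0.326 was taken over bright and dim genes alike. A dimmer CCT5 probe set fell by 1.30 ± 0.215 (adjusted p = 0.00138, limma), whereas the representative of CCT5 was at -0.19. A dim CCT8 probe set was at -1.03 and was not called (adjusted p = 0.0756, limma). With the mean of all probe sets CCT5 was called lower, at -0.75 (adjusted p = 0.00425, limma). CCT8 was then also called lower, at -0.47 (adjusted p = 0.0401, limma). The remaining subunit, TCP1, had only probe sets annotated to several genes, which are described below.

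**Figure D3:**
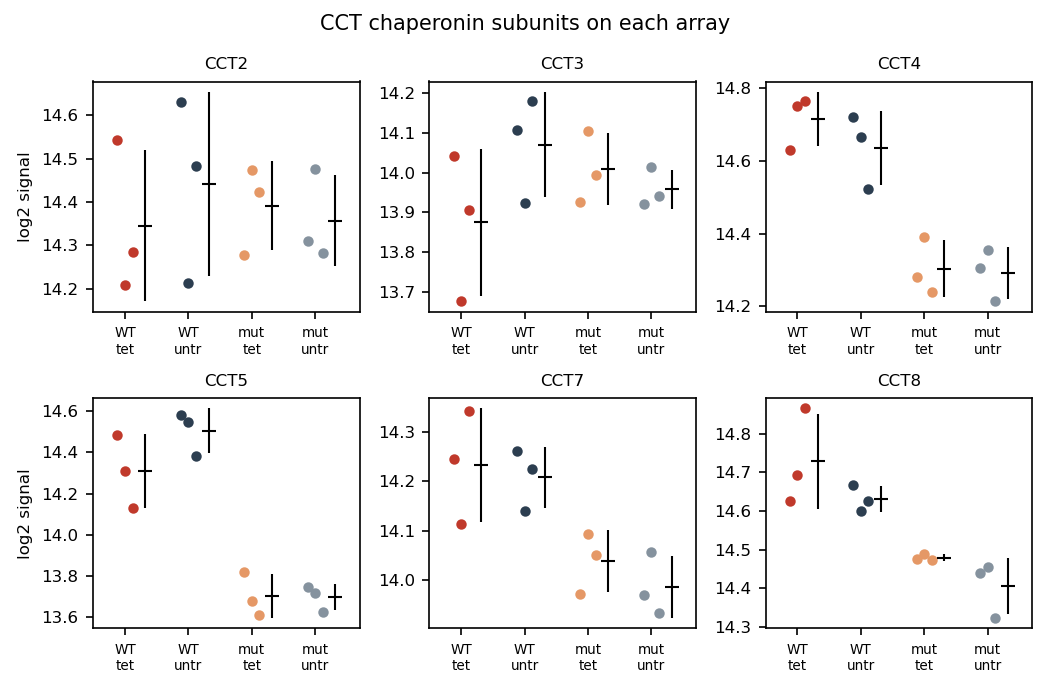
Points are the log2 signals of single arrays for the 6 chaperonin subunits with a probe set of their own, by group, and crosses and lines give the mean ± SD. The arrays with and without tetracycline overlap within each line, except for CCT8 in the mutant line. CCT4, CCT5, CCT7 and CCT8 are higher in both WT groups than in both mutant groups. Between the lines CCT4 and CCT5 were called in both comparisons, CCT8 only with tetracycline and CCT7 in neither.

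Probe sets annotated to several genes were read separately, because their signal cannot be given to 1 gene. All 4 probe sets annotated to HSPA8, the constitutive HSP70 of the cytosol, together with small nucleolar RNAs of its introns fell in WT cells with tetracycline, by 0.43 to 0.56 on the log2 scale, with adjusted p from 0.00158 to 0.0074 (limma). Each of these HSPA8 calls was kept in 12 of 12 fits that left out 1 array. Without the replicate 3 arrays of all groups the call was lost at all but the brightest of them. At the probe set that fell by 0.43 it was also lost without a variance trend and with only the WT arrays. One of the 4 HSPA8 probe sets read 14.51, 14.48 and 14.38 in WT cells with tetracycline, against 14.87, 14.83 and 15.02 in untreated WT cells, with no overlap. All 3 probe sets annotated to TCP1, a chaperonin subunit, together with a small nucleolar RNA also fell, by 0.45 (adjusted p = 0.0328, limma), 0.82 (adjusted p = 0.00477, limma) and 1.06 (adjusted p = 0.00985, limma). The brightest read 13.67, 13.27 and 13.11 in WT cells with tetracycline, against 13.89, 13.78 and 13.72 in untreated WT cells, and its call was lost without WT tetracycline replicate 2 or 3 or any untreated WT array. The 3 probe sets annotated to HSPA1A and HSPA1B, the main stress-inducible HSP70s, were not called in either line with tetracycline.

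**Figure D4:**
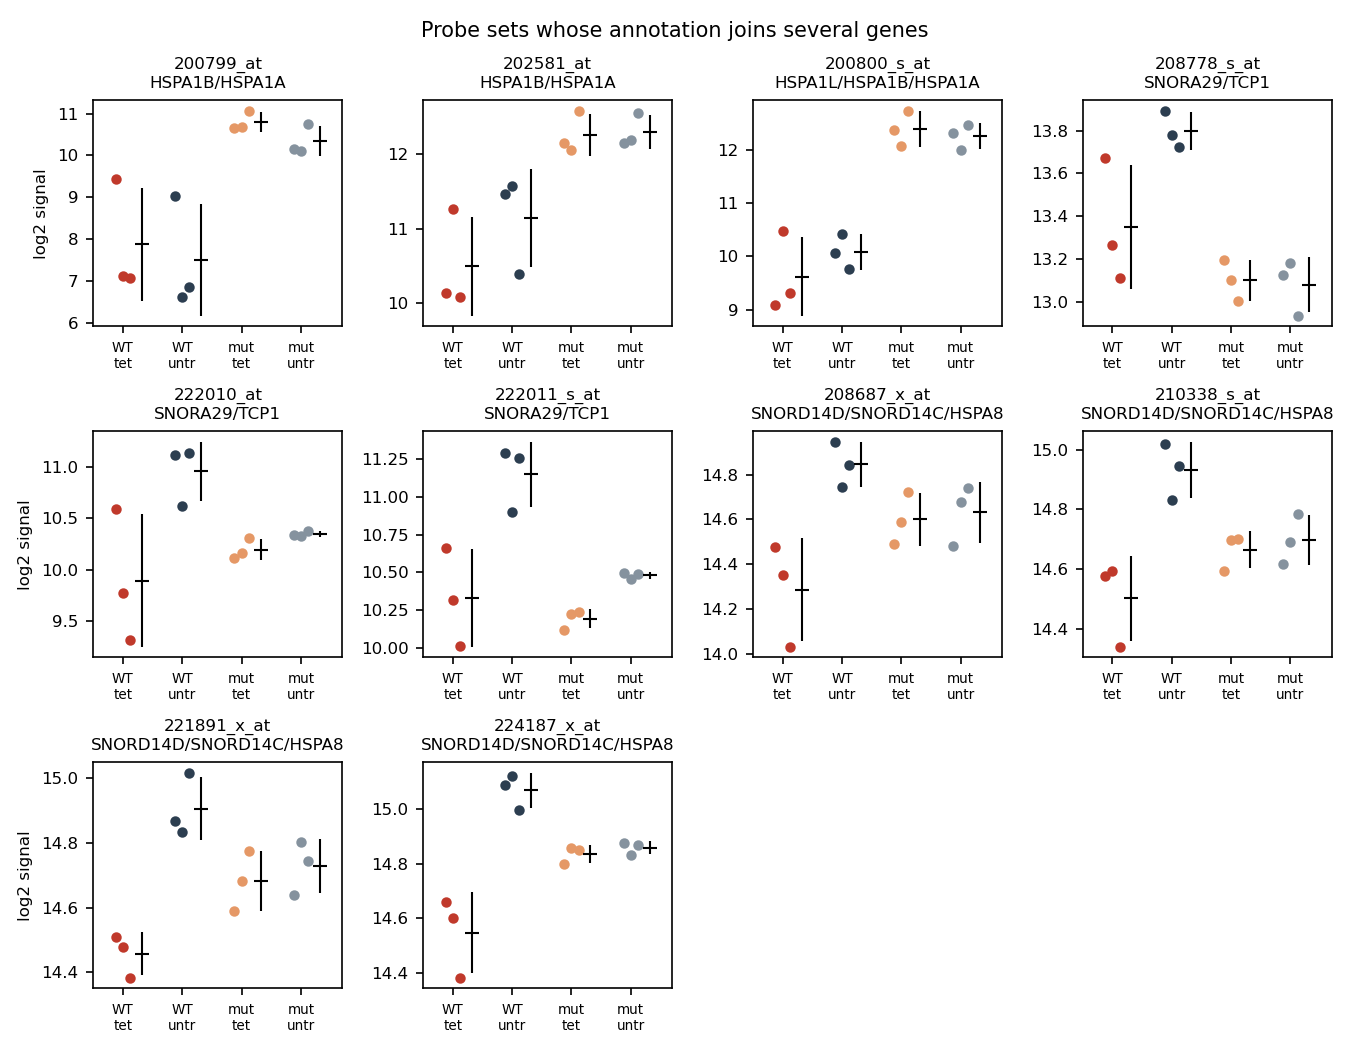
Points are the log2 signals of single arrays for the 10 probe sets whose annotation names several genes, by group, and crosses and lines give the mean ± SD. The HSPA8 and TCP1 probe sets are lower with tetracycline in WT cells, and the HSPA1A and HSPA1B probe sets are lower in both WT groups than in both mutant groups.

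Over the further probe sets of the members, 39 of 25 genes were tested. Of the 8 that belong to called members, 7 had the sign of the representative in WT cells with tetracycline and 4 were called in that direction. Another 5 probe sets were called where the representative was not, and all 5 fell (CCT5, DNAJA1, HSPA4 and 2 of HSPD1). Among all 29553 tested probe sets 2313 were called higher and 2692 lower in WT cells with tetracycline.

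In mutant cells with tetracycline against untreated mutant cells, 0 of 35 members were called in either direction by limma, where 0% of all genes rose and 0% fell. At an unadjusted p under 0.05 there were 2 of 35, HSPB8 and HSPA6, both higher, where 1.77% of all genes had such a p. HSPB8 read 10.18, 10.06 and 9.88 in mutant cells with tetracycline, against 9.24, 9.01 and 9.07 in untreated mutant cells. The groups did not overlap, and the change was 0.93 ± 0.303 with an adjusted p of 1 (limma). Groups did not overlap in 6 higher members, where 7.7% of all genes did so, and in 0 lower members, where 4.83% did. In the mutant line the log2 differences of the other genes called in WT cells were -0.03 for DNAJB1, -0.07 for HSPE1, -0.07 for HSPA13, -0.0029 for STIP1, -0.06 for HSPH1, 0.21 for BAG1 and 0.15 for HSPB1. The 4 probe sets annotated to HSPA8 were between -0.05 and -0.02. The 6 CCT subunits had a median of 0.04.

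The change in WT cells minus the change in mutant cells was the test of whether the lines responded differently. It called 0 of 35 members by limma, where 0.0765% of all genes were called higher and 0.0689% lower. At an unadjusted p under 0.05 there were 7 of 35, where 15.2% of all genes had such a p. The smallest adjusted p among members was 0.116, for HSPA13 at 0.67 ± 0.177 with a 95% interval of 0.29 to 1.05. HSPB8 had the largest positive difference, 1.48 ± 0.429 with an interval of 0.57 to 2.40 (adjusted p = 0.143, limma). At the dimmer HSPB8 probe set the difference was 0.07, with an interval of -2.46 to 2.60 (adjusted p = 0.988, limma). That probe set read 6.28 in mutant cells with tetracycline and 4.48 in untreated mutant cells, both under the filter. DNAJB1 had a difference of -0.88 ± 0.243 with an interval of -1.40 to -0.36 (adjusted p = 0.127, limma). HSPE1 was at -0.50 (adjusted p = 0.217, limma). A call in WT cells and none in mutant cells is therefore not shown to be a difference between the lines for any member. Without WT tetracycline replicate 1 this test called 3 members, HSPB8 at 1.76 (adjusted p = 0.0132, limma), HSPA13 at 0.75 (adjusted p = 0.0151, limma) and DNAJB1 at -0.98 (adjusted p = 0.0194, limma).

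**Figure D5:**
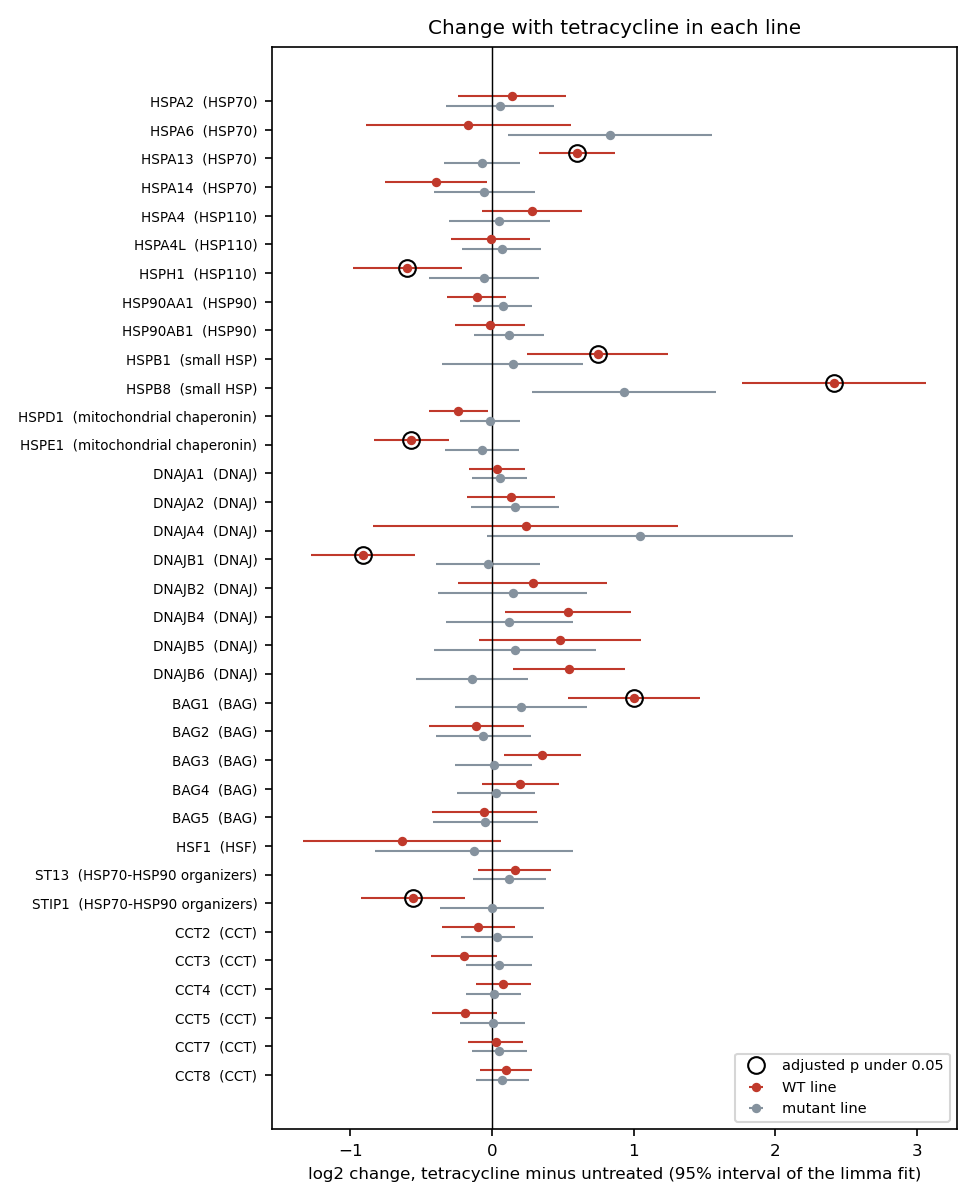
Points are log2 changes with tetracycline for the 35 tested genes, in WT cells and in mutant cells, with bars for the 95% interval of the limma fit. In WT cells HSPB8 lies at 2.42 and DNAJB1 at -0.91, and in mutant cells no gene was called.

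The lines also differed from each other, and 1 of 2 signs of RNA quality moved with the line. The actin control probe sets gave a 3′ over 5′ ratio, on the log2 scale, of 1.05 ± 0.265 on WT arrays and 0.259 ± 0.0262 on mutant arrays (SD, n = 6 each, 2-sided exact permutation p = 0.00216, the smallest possible), while for arrays with against without tetracycline the exact permutation p was 0.6 (WT line) and 0.5 (mutant line), in a design of 3 against 3 arrays where it cannot go below 0.1. The same ratio of GAPDH was 0.0831 ± 0.063 on WT arrays and 0.0745 ± 0.0365 on mutant arrays (SD, n = 6 each, 2-sided exact permutation p = 0.779). The part of the actin ratio in the differences between the lines was not tested. The WT arrays also varied more: the median SD over members was 0.175 with tetracycline and 0.193 untreated on WT arrays, and 0.103 with tetracycline and 0.105 untreated on mutant arrays.

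Between untreated WT cells and untreated mutant cells, 7 of 35 members were higher in WT cells (20%), against 5.84% of all genes, and 2 were lower (5.71%), against 6.82%. The higher ones were CCT5, HSPE1, BAG2, HSP90AB1, DNAJA1, BAG3 and CCT4, and the lower ones DNAJB2 and HSPA2. CCT5 read 14.58, 14.55 and 14.38 in untreated WT cells, against 13.75, 13.72 and 13.63 in untreated mutant cells, with no overlap and a difference of 0.81 ± 0.107 (adjusted p = 0.000618, limma). HSPE1 read 13.79, 13.62 and 14.08 in untreated WT cells, against 13.02, 13.16 and 13.12 in untreated mutant cells, a difference of 0.73 ± 0.124 (adjusted p = 0.0024, limma). Both differences were called in 12 of 12 fits that left out 1 array.

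BAG2 read 11.62, 11.56 and 12.04 in untreated WT cells, against 10.90, 11.01 and 11.20 in untreated mutant cells, a difference of 0.71 ± 0.158 (adjusted p = 0.0107, limma) that was lost without mutant untreated replicate 1 (adjusted p = 0.0573, limma). HSP90AB1 read 14.56, 14.29 and 14.59 in untreated WT cells, against 13.90, 14.06 and 13.81 in untreated mutant cells, a difference of 0.55 ± 0.116 (adjusted p = 0.00744, limma). HSP90AA1, its close relative, was at 0.15 and was not called. HSPA2 read 10.26, 10.63 and 10.96 in untreated WT cells, against 11.33, 11.43 and 11.53 in untreated mutant cells, a difference of -0.81 ± 0.18 (adjusted p = 0.00985, limma). DNAJB2, a J protein known from neurons, read 7.41, 7.61 and 7.63 in untreated WT cells, against 8.39, 8.44 and 8.31 in untreated mutant cells, with no overlap and a difference of -0.83 ± 0.248 (adjusted p = 0.039, limma). The DNAJB2 difference was called in 4 of the 12 fits that left out 1 array, namely without any of the WT tetracycline arrays or mutant tetracycline replicate 2. The CCT4 call was lost without WT untreated replicate 1 or 2 or any untreated mutant array, and the BAG3 call without WT untreated replicate 1 or mutant untreated replicate 1 or 2. Without the replicate 3 arrays of all groups 3 of the 9 were called, CCT5, HSPE1 and HSPA2. Further probe sets of HSF1 and BAG4 were called lower in untreated WT cells where the representative was not called. Among all 29553 tested probe sets 1237 were called higher and 2570 lower.

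Between WT cells with tetracycline and mutant cells with tetracycline, 10 of 35 members were higher in WT cells (28.6%), against 13.3% of all genes, and 4 were lower (11.4%), against 14.9%. Without the replicate 3 arrays of all groups 8 members were called. Of the 13 further probe sets of called members, 10 had the sign of the representative, 6 were called in that direction and 1 in the other. Another 10 probe sets were called where the representative was not. Among all 29553 tested probe sets 3024 were called higher in WT cells and 5127 lower. Of the 10, those called lower in WT cells belong to BAG4, BAG5, HSPA4, HSPD1 and HSPH1. Those called higher belong to DNAJA2, HSPA4 and HSPA14. HSPB8 read 11.42, 12.71 and 11.81 in WT cells, against 10.18, 10.06 and 9.88 in mutant cells, a difference of 1.94 ± 0.303 (adjusted p = 0.000582, limma). With the mean of all HSPB8 probe sets it was 1.17 and not called (adjusted p = 0.0658, limma). DNAJB6 read 10.41, 10.27 and 10.39 in WT cells, against 9.25, 9.30 and 9.73 in mutant cells, a difference of 0.93 ± 0.185 (adjusted p = 0.00263, limma). BAG3 read 12.30, 12.17 and 12.32 in WT cells, against 11.53, 11.39 and 11.51 in mutant cells, a difference of 0.79 ± 0.128 (adjusted p = 0.000735, limma). None of these 3 genes overlapped between the lines, and each was called in 12 of 12 fits that left out 1 array.

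BAG2 read 11.75, 11.40 and 11.74 in WT cells with tetracycline, against 10.91, 10.88 and 11.14 in mutant cells with tetracycline, a difference of 0.66 ± 0.158 (adjusted p = 0.00773, limma). The other higher members, CCT5, HSPA13, DNAJA1, HSP90AB1, CCT4 and CCT8, differed by 0.25 to 0.61. CCT5, CCT4, BAG2, BAG3, DNAJA1 and HSP90AB1 were higher in WT cells in both comparisons of the lines. CCT8 was called in 3 of the 12 fits that left out 1 array, namely without WT tetracycline replicate 1 or WT untreated replicate 1 or 2. With the mean of its 2 probe sets the CCT8 difference was turned, at -0.43, and was called lower (adjusted p = 0.04, limma). The dimmer of the 2 was called lower, at 5.53 in WT cells with tetracycline, under the filter, and 6.64 in mutant cells with tetracycline (adjusted p = 0.0422, limma). The DNAJA1 call was lost with quantile normalization and with the mean of all its probe sets, with adjusted p from 0.000248 to 0.377 over the alternatives other than single arrays left out (limma). The HSP90AB1 call was lost with quantile normalization, without a variance trend and without the replicate 3 arrays of all groups, with adjusted p from 0.012 to 0.205 over those alternatives (limma), and also without WT tetracycline replicate 3 or mutant tetracycline replicate 1 or 3. With the mean of all CCT5 probe sets the CCT5 difference was 0.14 and not called (adjusted p = 0.503, limma).

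The lower members were HSF1, DNAJB1, HSPA2 and STIP1. HSF1 read 8.95, 7.38 and 8.92 in WT cells with tetracycline, against 9.49, 9.40 and 9.55 in mutant cells with tetracycline, a difference of -1.06 ± 0.328 (adjusted p = 0.027, limma) that was -0.55 without WT tetracycline replicate 2 and then not called. The call was also lost without any of the 3 mutant tetracycline arrays, and a dimmer HSF1 probe set was also lower in WT cells, by 1.55. Between untreated lines the HSF1 representative was at -0.55 and not called (adjusted p = 0.293, limma). The dimmer HSF1 probe set was lower there in WT cells, by 1.82 (adjusted p = 0.0032, limma), in 12 of 12 fits that left out 1 array. With the mean of both HSF1 probe sets the untreated difference was -1.19 and was called (adjusted p = 0.0101, limma). DNAJB1 read 10.85, 10.75 and 10.33 in WT cells with tetracycline, against 11.36, 11.22 and 11.58 in mutant cells with tetracycline, a difference of -0.75 ± 0.172 (adjusted p = 0.00597, limma). HSPA2 differed by -0.73 and STIP1 by -0.69, with no overlap in either. The STIP1 call was lost without mutant tetracycline replicate 1 (adjusted p = 0.0532, limma).

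The probe sets annotated to HSPA1A and HSPA1B were lower in WT cells in both comparisons of the lines. The probe set annotated also to HSPA1L read 10.07, 10.43 and 9.76 in untreated WT cells, against 12.31, 11.99 and 12.46 in untreated mutant cells, a difference of -2.17 (adjusted p = 0.000641, limma). The same probe set read 9.09, 10.47 and 9.32 in WT cells with tetracycline, against 12.36, 12.07 and 12.73 in mutant cells with tetracycline, a difference of -2.76 (adjusted p = 6.46e-05, limma). None of its WT arrays reached the lowest mutant array. At the brighter of the other 2 probe sets the differences were -1.15 in untreated cells, a call lost without WT untreated replicate 3 or any untreated mutant array, and -1.77 with tetracycline.

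At the dimmer one the differences were the largest of the 3, at -2.85 untreated (adjusted p = 0.00811, limma) and -2.93 with tetracycline, but the WT arrays were split. Replicate 1 was at 9.44 with tetracycline and 9.04 untreated, and the other 4 WT arrays lay between 6.61 and 7.10. The mutant arrays lay between 10.66 and 11.07 with tetracycline and between 10.10 and 10.76 untreated.

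Other genes of the same pathways were counted from lists, and 9.41% of all tested genes rose and 8.57% fell in WT cells with tetracycline. Of the 16 tested HSP90 co-chaperones and ligases, 0 rose and 2 fell in WT cells with tetracycline, the prolyl isomerase PPID by 0.83 (adjusted p = 0.00633, limma) and the myosin chaperone UNC45A by 0.55 (adjusted p = 0.0363, limma) and called in 5 of the 12 fits that left out 1 array. Of the 3 mitochondrial HSP70 and HSP90 genes 2 fell, the HSP90 homologue TRAP1 by 0.73 (adjusted p = 0.00273, limma) and GRPEL1, the nucleotide exchange factor of the mitochondrial HSP70, by 0.87 (adjusted p = 0.00183, limma). The mitochondrial HSP70 itself, HSPA9, was at -0.09 and was not called. Of 7 cofactors of the chaperonin and of tubulin folding 2 fell, TXNDC9 by 0.97 and the tubulin cofactor TBCD by 1.05, and 0 rose. PPID, TRAP1, GRPEL1 and TBCD were called in 12 of 12 fits that left out 1 array, and TXNDC9 in 8.

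Of 6 prefoldin subunits, which hand actin and tubulin chains to the chaperonin, PFDN1 rose by 0.46 and 0 fell. Of 15 other J proteins DNAJB9, which works in the endoplasmic reticulum, rose by 0.66 and 0 fell. Of 10 regulators of heat shock factors and further HSF1 targets, JMJD6, a hydroxylase, rose by 0.52, HSBP1, which binds HSF1, rose by 0.36, and RBM23, an RNA-binding protein, fell by 0.36. With 1 array left out, JMJD6 was called in 10 of 12 fits, DNAJB9 in 9, HSBP1 in 4, PFDN1 in 3 and RBM23 in 1. None of the 6 other small heat shock proteins passed the filter on dim signals. None of the genes of these lists was called in mutant cells with tetracycline or in the difference between the lines by limma.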

How the data were processed

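Total RNA of stable HEK lines was measured on 12 arrays, 3 in each of 4 groups named from the labels. The deposited values are probe set signals made with MAS5, per the submitters' processing notes, an intensity on a linear scale. The mean after trimming 2% at each end was about 500.1 on every array, so the authors' values had been scaled per array. Values under 1, which were 0.337%, were set to 1 and log2 was taken of the deposited intensities. Probe sets whose highest mean over the groups exceeded 6.387, the median of all log2 values, were tested, which left 29553 of 54675. Platform symbols were updated through gene IDs, and 41091 probe sets carried 1 symbol. All 12 arrays entered 1 model of 4 group means, fitted with limma 3.58.1 in R 4.3.3 (eBayes with a variance trend), and p-values were adjusted over all tested probe sets within a contrast, 2-sided. The fit was tested on simulated data. RNA quality was compared by exact permutation. Python 3.11.15 with matplotlib 3.10.9 drew the figures. Full values are given for each member called in an induction or their difference, and for up to 4 members per direction between lines; of other lists, up to 3 called genes. The members, lists and alternatives were chosen with earlier results of these data known. Precision is limited by the number of arrays. The alternatives were no filter, a filter at the 75th percentile, an offset of 16, quantile normalization, no trend, only the arrays compared, a replicate block, array weights, a mean over a gene's probe sets, and leaving out single arrays or all replicate 3 arrays. Planned descriptions of protein sequence were not made, and promoter windows of HSF1 and BAG4 were not used here.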

Additional observations from a re-analysis of the deposited data

Results flagged for a closer look

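HSPA6, the strictly stress-inducible HSP70, stood apart in that its treated group was lower in WT cells and higher in mutant cells. Its groups did not overlap in either line. That was also so for HSPB8 and BAG1, but their treated groups were higher in both lines. It read 6.56, 6.44 and 6.57 in WT cells with tetracycline, against 6.59, 6.85 and 6.62 in untreated WT cells. The WT groups came as close as 6.57 and 6.59, and the change of -0.17 was not called (adjusted p = 0.775, limma). HSPA6 read 7.05, 6.72 and 6.48 in mutant cells with tetracycline, against 5.86, 6.20 and 5.71 in untreated mutant cells. The change in WT cells minus that in mutant cells was -0.997, with a 95% interval of -2.02 to 0.02, and it was not called (adjusted p = 0.358, limma). These signals lie close to the filter at 6.387, and a dimmer HSPA6 probe set had a difference of 0.80 in WT cells, also not called (adjusted p = 0.162, limma).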

How the results depend on the processing

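In WT cells with tetracycline 8 members were called, against 5 without a filter, 5 without a variance trend, 2 with only the 6 WT arrays, 1 without the replicate 3 arrays of all groups, and 5 to 11 when single arrays were left out. The cause of these changes was not tested, and the last 3 settings also used fewer arrays. HSPB8 was called in all 10 of the other alternatives, DNAJB1 in 9, HSPA13 and HSPE1 in 8, BAG1 in 7, and STIP1, HSPH1 and HSPB1 in 6. In mutant cells the count was 0 under every alternative run. For the difference between the lines it was 0, against 4 with array weights (HSPB8 and HSPA13 higher, HSPE1 and DNAJB1 lower), and 0 to 3 when single arrays were left out. Without the replicate 3 arrays the count was 3 for untreated lines, where it was 9, and 8 with tetracycline, where it was 14; single arrays gave 6 to 12 and 10 to 16. The HSP70 median of -0.01 was 0.14 without a filter, 0.14 with the stricter filter, 0.037 without replicate 3, 0.23 with the mean of all probe sets and -0.13 to 0.062 without single arrays. The mean of all probe sets gave -0.82 for HSP110, -0.049 for BAG and -0.16 for CCT, where the medians were -0.01, 0.20 and -0.04. Quantile normalization gave -0.20 for HSP90, where the median was -0.06, and -0.12 for CCT. The DNAJ median of 0.26 was 0.13 with the stricter filter and 0.19 to 0.45 without single arrays.

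Of 1908 values for the named probe sets under the alternatives, 1547 kept their direction and their side of the threshold, 360 kept the direction only, and 1 reversed, CCT8 between the lines with tetracycline, at 0.25 and -0.43 with the mean of all probe sets. Quantile normalization moved the median of all probe sets by at most 0.099. The main fit did not treat same replicate numbers as pairs, and whether they pair the samples was not tested. Deviations from the group means correlated between treated and untreated arrays of the same number. For replicates 1, 2 and 3 the correlations were 0.25, 0.24 and 0.04 in WT cells and 0.14, 0.03 and 0.21 in mutant cells. With the replicate block the counts were 9 in WT cells with tetracycline, 0 in mutant cells, 0 for their difference, 9 for untreated lines and 16 for lines with tetracycline, and the subfamily medians were as without it. A fit of only the arrays compared gives no other value for the difference, which uses all 12.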
